A study of Mus musculus with 3 samples.

Results

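Panobinostat was compared with vehicle in the leukemia-bearing mice of a spleen dendritic cell (DC) study. The cells were those carrying 1 of 4 hashtags, antibody-borne barcodes that mark the sample of origin: vehicle 1 and vehicle 2 (hashtag names AML_D5W1 and AML_D5W2), and panobinostat 1 and panobinostat 2 (AML_LBH1 and AML_LBH2). A barcode counted as a cell of a sample when it held at least 500 genes, at most 10% mitochondrial UMIs (unique molecular identifiers, 1 per captured transcript) and a top hashtag count at least 5 times the second. By this rule 10086 of the 21547 barcodes assigned over all 6 hashtags were members: 3494 and 1340 from the vehicle and 3121 and 2131 from the panobinostat samples. The rest came from wild-type (WT) mice, 1 sample per treatment (8470 with vehicle and 2991 with panobinostat), and serve here only as values set beside the leukemia samples.

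All mice were C57BL/6 and were treated for 2 days. Per the labels, spleen cells were separated on an Optiprep gradient, GFP-negative cells were sorted, other lineages were removed with a magnetic pan-DC kit, and the 6 hashtagged samples were pooled in 1 capture, so no sequencing batch separates the groups. D5W is read as the vehicle (dextrose in water) and LBH as panobinostat's development code. The leukemia is named only by "AML" (acute myeloid leukemia) in the hashtag names; its genotype, the dose and the age of the mice are not given in the sources used here. The labels also do not say whether each hashtag is 1 animal or a pool, so every p-value measures the spread between these hashed samples, which may be technical.

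Panobinostat inhibits histone deacetylases, the enzymes that take acetyl groups off histones and other proteins, and so alters the transcription of many genes. DCs take up antigen and present it to T cells. Plasmacytoid DCs (pDCs) are the type known for secreting type I interferon, conventional DC1s (cDC1s) for presenting antigen of dead cells to CD8 T cells, conventional DC2s (cDC2s) for presenting antigen to CD4 T cells, and mature DCs for carrying antigen to T cell zones with high MHC class II and CCR7.

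After a doublet score filter 3180, 1226, 2822 and 1931 cells were kept (vehicle 1, vehicle 2, panobinostat 1, panobinostat 2; the same order is used for every set of 4 values), with 25312418, 12582145, 23583781 and 18229075 UMIs in all and medians of 5466 to 6730 UMIs per cell. The filter removed 8.51 to 9.58% of barcodes. The gene expression, hashtag and antibody libraries come from the same capture and share the same 38717 barcodes. Clusters were named from marker genes, and the 4 DC-like classes held 2496, 944, 2304 and 1462 cells. The summed pDC markers stood at 15713 to 16717 CPM (UMI counts scaled to the same total in each sum) in pDC-like cells and the summed cDC1 markers at 4826 to 5069 CPM in cDC1-like cells. The cDC2-like name is the weakest. Cd209a, a cDC2 lectin, was at 98.3 CPM there and at 244 CPM in pDC-like cells, and Clec10a at 7.94 against 233 CPM. Of the other cDC2 markers Mgl2, Clec12a and Cd4 were also highest in pDC-like cells, and Esam and Tnip3 in mature DC-like cells. Those highest in cDC2-like cells were Sirpa (195 CPM), Dtx1 (116 CPM), Clec4a2, Clec4a4 and Irf4.

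The pDC-like share of DC-like cells was smaller in both panobinostat samples, and the cDC2-like and mature shares were larger. pDC-like cells made up 48.4% (95% exact binomial interval 46.4 to 50.3%) of DC-like cells in vehicle 1 and 26.3% (23.5 to 29.2%) in vehicle 2. In panobinostat 1 and 2 they made up 21.8% (20.1 to 23.5%) and 11.1% (9.52 to 12.8%). Both panobinostat values lay below both vehicle values, but the vehicle samples stood further apart from each other than vehicle 2 stood from panobinostat 1. The means were 37.3% ± 15.6 and 16.4% ± 7.57 (SD, n = 2 each), a difference of −20.9 percentage points with a two-sided exact permutation p of 0.33, the smallest that 2 samples against 2 can give. Without vehicle 1 the difference was −9.84 points and without vehicle 2 it was −31.9 points.

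cDC2-like cells took 15.5, 28.3, 32.7 and 43.2% of DC-like cells, a difference of 16.1 points (exact permutation p = 0.33, n = 2 each), which was 9.69 points without vehicle 1. Mature DC-like cells took 20.3, 17.1, 28.1 and 24.9%, a difference of 7.81 points with an SD of 2.3 in the vehicle and 2.25 in the panobinostat samples (exact permutation p = 0.33). cDC1-like cells took 15.9, 28.4, 17.4 and 20.8%, and here the groups overlapped. The counts were 396, 268, 401 and 304 cDC1-like, 386, 267, 754 and 632 cDC2-like, and 507, 161, 647 and 364 mature DC-like cells. Per cDC1-like cell, cDC2-like cells were more numerous in both panobinostat samples than in either vehicle sample. For mature DC-like cells counted in this way the groups overlapped, so their larger share does not show a rise apart from the pDC-like share. Vehicle 1 was the sample richest in pDC-like and poorest in cDC1-like cells, and the cDC1-like difference of −3.03 points became 3.23 points without vehicle 2. The intervals cover counting error only, and all shares follow the density gradient, the sort and the magnetic selection. In WT mice, with 1 sample per treatment and no test, pDC-like cells were 12.9% of DC-like cells with vehicle and 1.74% with panobinostat, and cDC2-like cells 33.5 and 24.9%.

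Other cell kinds showed no such separation. As shares of all kept cells, erythroid-like cells were 3.87, 9.38, 5.07 and 7.92%, B cell-like cells 2.74, 1.63, 1.45 and 2.28%, and NK cell-like cells 1.57, 1.14, 1.49 and 1.5%. The groups overlapped in each of these, as they did in red pulp macrophage-like cells (0.22, 0.408, 0.177 and 0.932%). Endothelial-like cells were an exception with few cells: 2, 0, 7 and 20 cells, where 0 of 1226 allows a share of up to 0.245% at a limit of 3 counts (exact permutation p = 0.33). Cells in unnamed clusters made up 9.5 to 12.5% of a sample.

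**Figure D1:**
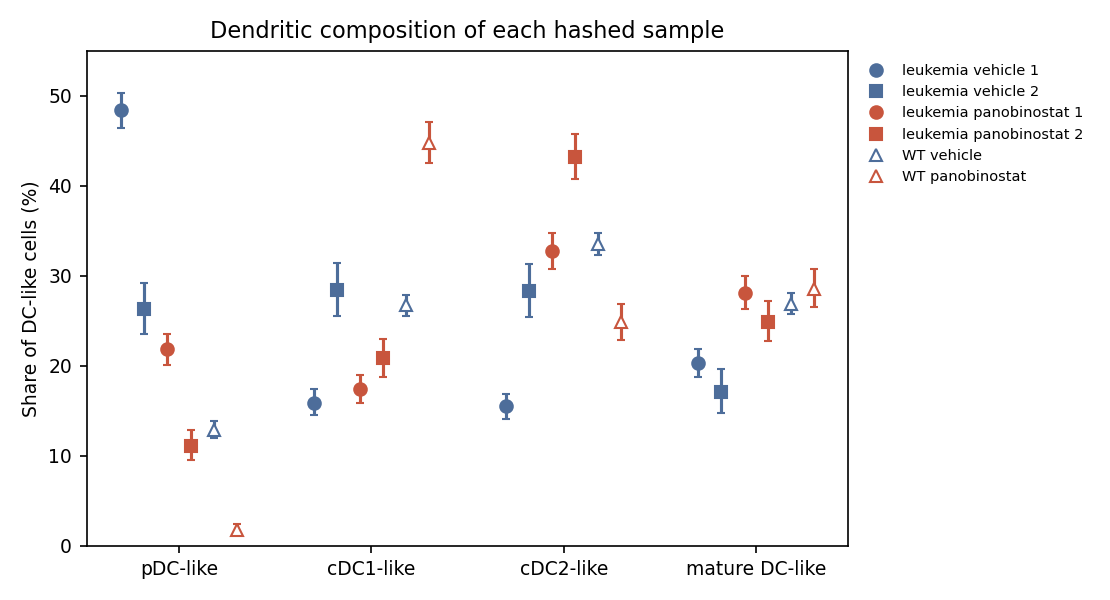
Share of DC-like cells (y axis, percent) in each class (x axis), with 1 point for each hashed sample and 95% exact binomial intervals, WT samples included. The pDC-like share runs from 48.4% and 26.3% in the vehicle samples to 21.8% and 11.1% in the panobinostat samples, and the cDC2-like share from 15.5% and 28.3% to 32.7% and 43.2%.

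The antibody against Siglec-H, a lectin on the surface of pDCs, gave a count that took no part in naming clusters. Its median was 462 UMIs in pDC-like cells and 252 UMIs in the erythroid-like and B cell-like cells used as reference. Above the 99th percentile of the reference (609 UMIs) lay 8.84, 4.24, 3.58 and 2.43% of kept cells in vehicle 1, vehicle 2, panobinostat 1 and panobinostat 2. Both panobinostat samples were again below both vehicle samples (exact permutation p = 0.33, n = 2 each), with intervals of 3.18 to 5.53% in vehicle 2 and 2.92 to 4.33% in panobinostat 1 that overlap. The difference of the means was −3.53 percentage points, −1.23 without vehicle 1 and −5.83 without vehicle 2. This threshold kept only 20% of pDC-like cells. At the 95th percentile (408 UMIs), which kept 67.3% of them, the shares were 33, 19.1, 14.9 and 10.7%. The WT samples had 3.37% with vehicle and 1.11% with panobinostat above the 99th percentile.

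UMIs were then summed per hashed sample and class, and panobinostat was compared with vehicle within each class by edgeR's quasi-likelihood test with Benjamini-Hochberg adjustment over all genes tested in the class. Every adjusted p below comes from this test unless limma is named, a gene is said to rise or fall at an adjusted p under 0.05, and a log2 fold change is followed by its standard error (SE). In pDC-like cells 22 of the 8848 genes tested rose (0.249%) and 8 fell (0.0904%). Among cDC1-like cells 103 of 9887 rose (1.04%) and 45 fell (0.455%). In cDC2-like cells 24 of 9481 rose (0.253%) and 15 fell (0.158%), and in mature DC-like cells 5 of 8354 rose (0.0599%) and none fell (0%). The mature count of 0 stands beside 250 genes lower and 350 higher at an unadjusted p under 0.05, and DESeq2 also called none lower. Of the 201 genes called in at least 1 class, 181 were called in 1 class only. A sum over a class cannot tell fewer expressing cells from less RNA per cell.

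No gene passed in all 4 classes in 1 direction (0% of the 7374 genes tested in all 4), and DESeq2 also found none. At an unadjusted p under 0.05 in every class 7 genes were higher and 4 lower. The higher ones were Fos, Cd69, Stk17b, Rack1, Rplp2, Rps16 and Rps10, and the lower ones Hspa1a, Hspa1b, Hsph1 and Dynll1; they are named here after their values were seen. Fos, a transcription factor subunit that cells switch on within minutes of a stimulus, came closest: it rose in 3 classes.

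Fos stood at 891, 804, 1141 and 990 CPM in pDC-like cells (log2 fold 0.33, SE 0.0689, adjusted p = 0.027). In cDC1-like cells it stood at 1384, 1114, 1581 and 1687 CPM (0.39, SE 0.0731, adjusted p = 0.0178), and in cDC2-like cells at 1514, 1092, 1926 and 2113 CPM (0.63, SE 0.109, adjusted p = 0.0134). In mature DC-like cells the values were 519, 495, 644 and 588 CPM (0.28, adjusted p = 0.468). Both panobinostat samples were above both vehicle samples in each class. Its calls were not stable: in pDC-like cells the adjusted p was 0.441 without vehicle 2 and 0.0905 without panobinostat 1, in cDC1-like cells 0.435 without vehicle 2, and in cDC2-like cells 0.06 without panobinostat 2. In the WT samples Fos was at 988 and 1333 CPM in pDC-like cells and at 1706 and 1445 CPM in cDC1-like cells, vehicle first.

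Besides Fos, 12 genes rose in 2 classes and 4 fell in 2 classes, and those named were picked after their values were seen. Atf3, a stress-induced transcription factor, rose in cDC1-like cells (201, 152, 306 and 311 CPM; log2 fold 0.80, SE 0.102, adjusted p = 0.00114) and in cDC2-like cells (343, 166, 521 and 624 CPM; 1.16, SE 0.196, adjusted p = 0.0123). Egr1, an immediate early factor, and Dusp2, a phosphatase of MAP kinases, rose in the same pair of classes. Cd69, which holds lymphocytes in tissue, rose in pDC-like cells (198, 206, 256 and 294 CPM; 0.42, SE 0.0882, adjusted p = 0.027) and in cDC1-like cells (6.26, 9.15, 17.2 and 18.4 CPM; 1.24, SE 0.204, adjusted p = 0.00775). In mature DC-like cells Cd69 had a fold as large (12.5, 10.6, 28.5 and 25.5 CPM; 1.18) that did not pass (adjusted p = 0.159). The others that rose in 2 classes were Apoe, Ccnd2, Cst3, H2-Aa, Ifitm6, Malt1, Ms4a4c and Socs3. Without vehicle 2 the cDC1-like adjusted p was 0.0604 for Atf3 and 0.237 for Egr1.

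The 4 that fell in 2 classes were Hspa1a, an inducible chaperone of the HSP70 family, Dynll1, a light chain of dynein, Rgs10, which shortens G protein signals, and Crip1, a LIM domain protein. Hspa1a fell in cDC2-like cells (757, 886, 513 and 547 CPM; log2 fold −0.63, SE 0.0874, adjusted p = 0.00411) and in cDC1-like cells (556, 682, 460 and 504 CPM; −0.36, SE 0.0808, adjusted p = 0.0429). The panobinostat samples were below the vehicle samples in both classes. The WT samples stood the other way, with Hspa1a at 1100 CPM under vehicle and 1851 CPM under panobinostat in cDC2-like cells, and at 801 and 1012 CPM in cDC1-like cells. The cDC2-like adjusted p was 0.0707 without panobinostat 1, and the cDC1-like one 0.0673 without vehicle 1, 0.674 without vehicle 2 and 0.0717 without panobinostat 1. Hspa1a and its neighbour Hspa1b are near-identical copies, so the counting may have split their reads; their promoters match at 296 of 300 bases. Dynll1 fell in cDC1-like cells (409, 438, 294 and 333 CPM; −0.43, adjusted p = 0.00775) and in cDC2-like cells (452, 555, 358 and 366 CPM; −0.47, adjusted p = 0.0439).

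**Figure D2:**
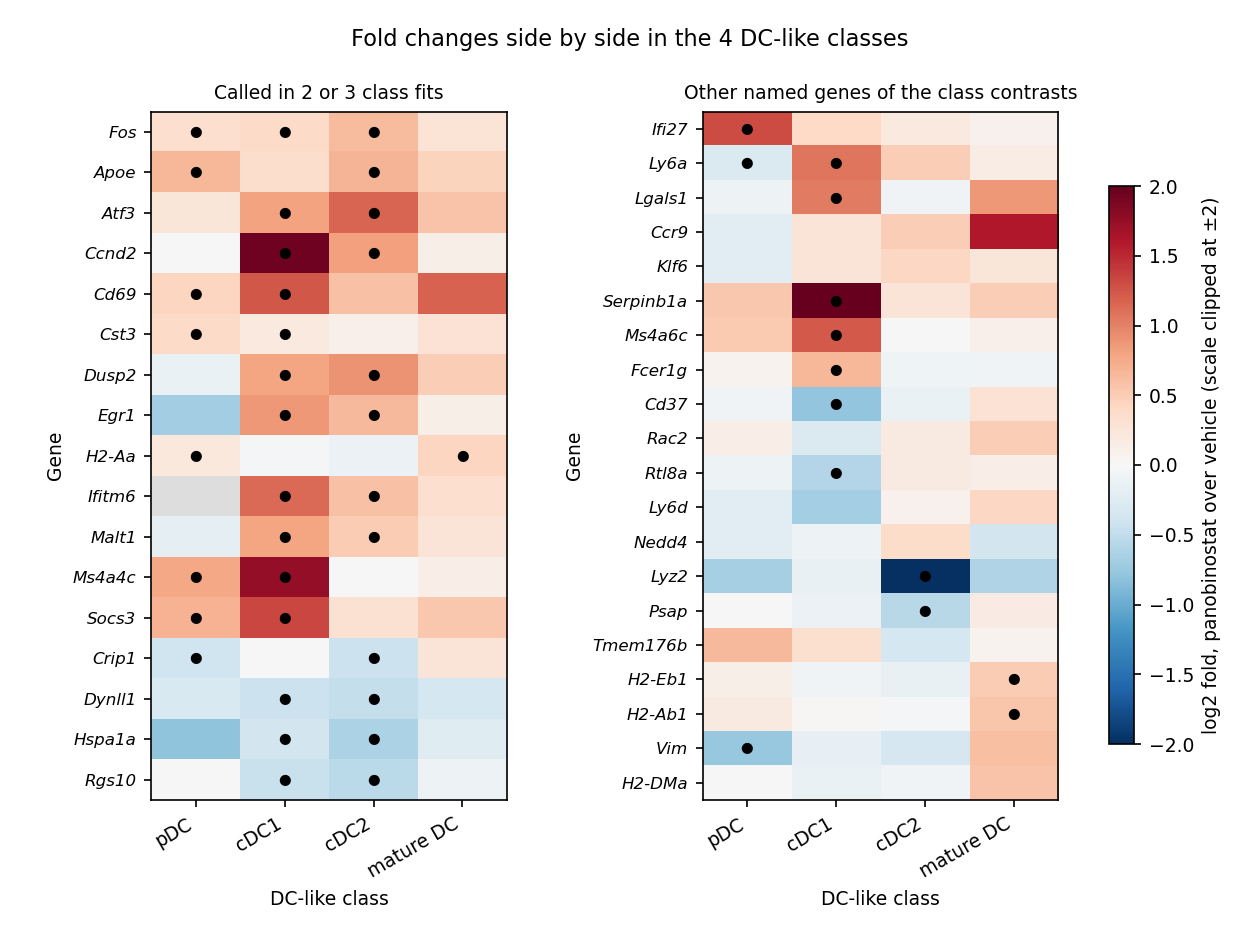
Log2 fold change of panobinostat over vehicle (colour, clipped at ±2) in each DC-like class (x axis) for genes (y axis) called in 2 or 3 classes (left) and for the other genes named from the class contrasts (right); a black dot marks a call in that class and grey a class where the gene was not tested. Fos carries 3 dots and no gene carries 4. The darkest cells of Ccnd2 and Serpinb1a are in cDC1 and that of Lyz2 is in cDC2, and Ccnd2 carries a dot in cDC2 as well.

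For genes that moved in several classes, the 250 bases before the start site are shown for 2 that rose (Fos, Ms4a4c) and 2 that fell (Dynll1, Hspa1a). They were taken as those called in most classes and on the class mean with an entry in the RefSeq promoter table (GRCm38.p6), which held 11 of 14 such genes. Capitals mark GGGCGG, the Sp1-type GC box, and CCAAT, the NF-Y-type box, on either strand (CCGCCC and ATTGG when read on the other strand).
Fos (chr12:85473640-85473889, plus strand): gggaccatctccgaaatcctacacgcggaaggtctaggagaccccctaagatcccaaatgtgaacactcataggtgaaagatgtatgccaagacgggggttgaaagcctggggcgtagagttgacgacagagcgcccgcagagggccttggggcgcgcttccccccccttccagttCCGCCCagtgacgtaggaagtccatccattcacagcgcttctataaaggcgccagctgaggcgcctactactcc
Ms4a4c (chr19:11407411-11407660, plus strand): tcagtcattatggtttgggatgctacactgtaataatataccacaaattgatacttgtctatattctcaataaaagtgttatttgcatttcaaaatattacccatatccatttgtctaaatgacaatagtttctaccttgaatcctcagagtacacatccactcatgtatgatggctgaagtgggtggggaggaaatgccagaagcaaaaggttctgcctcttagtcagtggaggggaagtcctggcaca
Dynll1 (chr5:115300991-115301240, minus strand): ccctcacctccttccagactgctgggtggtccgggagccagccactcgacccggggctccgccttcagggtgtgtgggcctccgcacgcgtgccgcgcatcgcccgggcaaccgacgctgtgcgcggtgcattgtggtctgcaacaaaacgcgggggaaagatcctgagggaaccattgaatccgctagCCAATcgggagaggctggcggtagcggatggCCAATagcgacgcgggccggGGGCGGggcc
Hspa1a (chr17:34972157-34972406, minus strand): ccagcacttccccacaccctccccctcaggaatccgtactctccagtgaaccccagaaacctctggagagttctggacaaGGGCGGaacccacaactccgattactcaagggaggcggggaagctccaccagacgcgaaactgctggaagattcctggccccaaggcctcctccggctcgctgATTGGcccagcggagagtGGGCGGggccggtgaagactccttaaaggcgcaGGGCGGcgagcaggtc
Fos held 1 GC box, Dynll1 held 1 GC box and 2 CCAAT boxes, Hspa1a held 3 GC boxes and 1 CCAAT box, and Ms4a4c held neither. Over the 300-base windows of all 32851 promoters in the table, 35.7% held GGGCGG and 37.4% held CCAAT. GAAANNGAA (the core of interferon response elements, in 8.56% of promoters), CACGTG (the E-box, 7.15%) and TTTCCCGC (an E2F-type site, 1.07%) were in none of the 4 windows.

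To ask for change over the DC-like classes as a whole, log2 CPM was averaged over the 4 classes of each sample, so that class sizes do not enter, and tested with limma. On this mean 77 of 7374 genes rose (1.04%) and 13 fell (0.176%). The counts moved with single samples: 316 genes passed without vehicle 1 and 182 without panobinostat 1. Those that rose included Cd84, a SLAM-family receptor, Serpinb1a, an inhibitor of neutrophil proteases, Cd69, Ccl4, a chemokine, Atf3, Ccnd2, the cell cycle protein cyclin D2, and Socs3, a feedback inhibitor of cytokine signalling; those that fell included Lyz2, which encodes lysozyme, Dnal4, a dynein light chain, and the chaperones Hspa1b, Hsph1 and Hspa1a. Except for list members, these genes were chosen after their values were seen. A change on the mean can come mostly from 1 class. Serpinb1a had a log2 fold of 2.37 in cDC1-like cells and of 0.25 to 0.54 in the others. Ccnd2 had 1.94 in cDC1-like and −0.00034 in pDC-like cells, and Lyz2 −2.17 in cDC2-like and −0.15 in cDC1-like cells. Cd69 and Atf3 were positive in all 4 classes. Cd84 had a limma adjusted p of 0.285 without panobinostat 2, and Dnal4 one of 0.126 without vehicle 2 and 0.279 without panobinostat 2.

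Cd69 had mean log2 CPM of 4.80, 4.95, 5.66 and 5.77, a change of 0.84 (SE 0.0907, limma adjusted p = 0.000104). Atf3 had 7.07, 6.55, 7.51 and 7.55 (0.72, SE 0.104, limma adjusted p = 0.00136). Fos had 9.99, 9.74, 10.3 and 10.3 (0.41, SE 0.0554, limma adjusted p = 0.000764). In all 3 both panobinostat samples were above both vehicle samples, and vehicle 2 was the lowest for Atf3 and Fos. Dynll1 fell from 8.78 and 8.98 to 8.5 and 8.46 (−0.40, SE 0.0566, limma adjusted p = 0.00136). The means of Cd69, Atf3, Fos, Ccnd2, Ccl4, Il1b, H2-Ab1, Ms4a4c, Rps10, Rpl31, Lyz2 and Dynll1 passed under every alternative run for the mean.

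Of the 27 gene lists with a tested member, 15 had at least 1 called gene on the mean over classes. Over all 7374 genes tested there, 77 rose (1.04%) and 13 fell (0.176%). Of the 15 immediate early and stress genes tested, 4 rose and 15 had a positive change, with a median log2 change of 0.26 against −0.0031 over all genes. Of 18 heat shock chaperones 3 fell (Hspa1a, Hspa1b and Hsph1) and 16 had a negative change (median −0.11). Hsph1, an HSP70 partner, went from 6.03 and 6.52 to 5.64 and 5.78 (−0.57, SE 0.112, limma adjusted p = 0.0123), with a limma adjusted p of 0.0741 without vehicle 2. Cytosolic ribosomal proteins shifted little but together: 16 of 76 rose, 72 had a positive change, and the median was 0.089. With each sample left out in turn the median lay between 0.0778 and 0.0954. Of 9 chemokines and cytokines 3 rose (Ccl4, Il1b and Ccl3) and 8 had a positive change (median 0.21). Of 12 proteases and protease inhibitors 2 rose (Cst3 and Serpinb1a; median 0.11), and of 22 S phase genes none passed, with 19 positive changes (median 0.16).

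Of 12 MHC class II genes 4 rose on the mean (H2-Aa, H2-Ab1, H2-Ob and Cd74), beside 77 of all 7374 genes (1.04%). A positive change was seen in 11 (median 0.11). The classes were uneven: the medians were 0.47 in mature DC-like and 0.16 in pDC-like cells, with 12 and 9 of 12 positive, and −0.013 in cDC1-like and −0.046 in cDC2-like cells, with 7 and 9 of 12 negative. Cd74 had a limma adjusted p of 0.116 without vehicle 1, and H2-Ob one of 0.23 without panobinostat 2.

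Lists tied to the drug or to interferon had called genes in small numbers, out of few members tested. Over all genes 77 of 7374 rose on the mean (1.04%), and no test of a list was run. Of the 6 histone deacetylases tested on the mean none passed (median −0.033), nor did any of 12 acetyltransferases and acetyl-lysine readers (median 0.0026). Genes reported to rise with deacetylase inhibition had 1 of 9 called on the mean, Gsn, the actin-severing protein gelsolin (0.30, SE 0.0649, limma adjusted p = 0.022), with 8 of 9 positive changes and a median of 0.12. In the classes Klf4 rose in pDC-like cells and Cdkn1a, the cell cycle inhibitor p21, in cDC1-like cells. In cDC2-like cells none of 10 passed, with 9 positive (median 0.18). The other classes did not lean upward. Positive changes numbered 3 of 9 in pDC-like (median −0.028) and 5 of 10 in cDC1-like cells (0.013). In mature DC-like cells they numbered 5 of 11 (−0.0002), with none called. No gene of the 15 listed interferons reached the count filter in any class. Of 27 interferon-stimulated genes (ISGs) tested on the mean 3 rose (Ly6a, Zbp1 and Ifitm2), and the median was −0.024. Without panobinostat 2 the limma adjusted p was 0.248 for Gsn and 0.208 for Zbp1, and without panobinostat 1 it was 0.0561 for Ly6a and 0.0737 for Ifitm2.

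**Figure D3:**
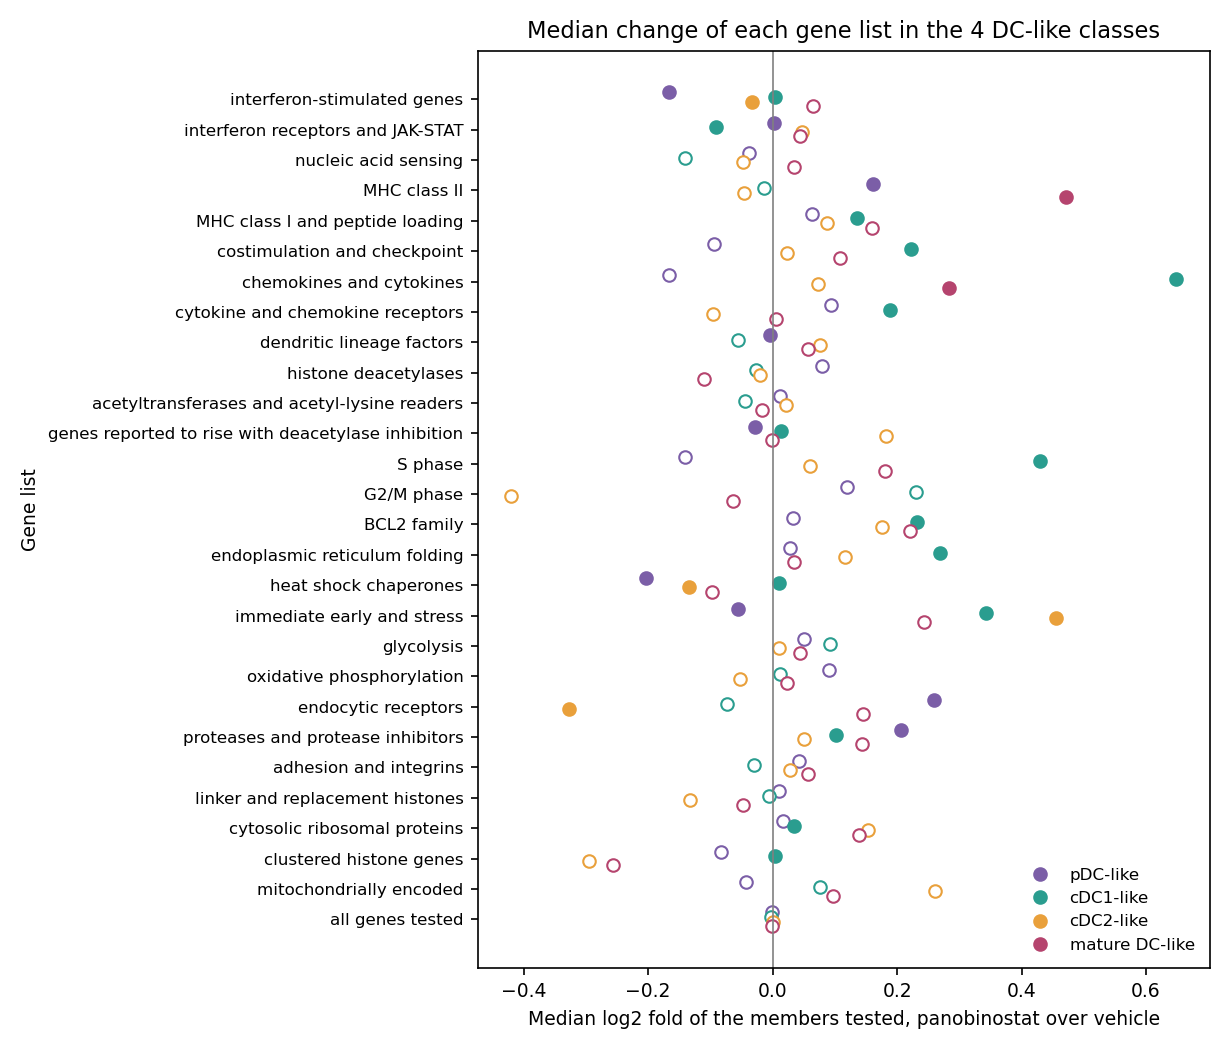
Median log2 change, panobinostat over vehicle (x axis), of the tested members of each gene list (y axis) in each DC-like class (colour); a filled circle marks a list with at least 1 called member and an open circle one with none. Medians over all genes tested lie between −0.0028 and 0.00037, S phase genes stand at 0.43 in cDC1 and chemokines and cytokines at 0.65, while immediate early genes stand at 0.46 and G2/M genes at −0.42 in cDC2.

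In pDC-like cells the genes that rose included Slpi, a secreted inhibitor of leukocyte proteases, Ifi27, an interferon-inducible mitochondrial protein, and Pir, an iron-binding nuclear protein. Those that fell included Cd8b1, the CD8 beta chain, Vim, the filament protein vimentin, and Ly6a, the surface protein Sca-1. Slpi stood at 171, 195, 327 and 635 CPM (log2 fold 1.33, SE 0.169, adjusted p = 0.000145). Pir stood at 86.2, 82.5, 152 and 225 CPM (1.05, SE 0.129, adjusted p = 0.000119), and Ifi27 at 40.7, 28.4, 72 and 143 CPM (1.30, SE 0.203, adjusted p = 0.0025). In all 3 panobinostat 2 was the highest sample. No panobinostat value fell into the vehicle range, which was a condition for naming these genes. In the WT samples Slpi was level, at 254 CPM with vehicle and 258 CPM with panobinostat, and Ifi27 was at 51.3 and 44.8 CPM.

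Cd8b1 stood at 494, 684, 377 and 248 CPM in pDC-like cells (−0.81, SE 0.128, adjusted p = 0.0025), but in WT it was at 556 CPM with vehicle and 812 CPM with panobinostat. Vim stood at 99.8, 97, 61.5 and 49.5 CPM (−0.77, SE 0.124, adjusted p = 0.00298). Ly6a, at a much higher level, stood at 2291, 2617, 2028 and 1964 CPM (−0.29, SE 0.0572, adjusted p = 0.017), the only one of 30 ISGs tested that passed. Of these 30, 20 had a negative and 10 a positive change (median −0.17). Over all 8848 genes 8 fell (0.0904%). An unnamed cluster with all 13 pDC markers raised, led by interferon-induced genes, was not part of this class. The ISG values here are those without it. With it added, an alternative chosen after seeing the data, the class held 1250, 265, 531 and 170 cells and 40 genes were called. Other names that rose were Myh13, Rad51b, Mgl2, Ms4a4c, Gpm6b, Socs3, Klf4, Fcgr2b (the inhibitory IgG receptor), Cst3 and H2-Aa, and others that fell were Kctd14, Hsph1, Plp2, Pgam2 and Crip1. Siglech, a marker used to name the class, did not pass, at 2281, 2261, 2411 and 2485 CPM. Nor did Irf7, the master factor of type I interferon, at 293, 313, 286 and 225 CPM (−0.19, adjusted p = 0.656).

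The pDC-like calls depended on the cell filter and on the tool. With the doublet score filter left out, edgeR called none of them and no other gene (189 genes higher and 100 lower at an unadjusted p under 0.05), and DESeq2 also called none (77 and 31). The count of 30 was 18 without vehicle 1, 137 without panobinostat 1 and 47 without panobinostat 2. Of 22 named genes 5 passed whichever sample was left out (Slpi, Ifi27, Pir, Cd8b1 and Pgam2), 12 did not pass without vehicle 1, 5 without vehicle 2, 6 without panobinostat 1 and 2 without panobinostat 2. Without vehicle 1 the adjusted p of Vim was 0.0637, and without vehicle 2 that of Ly6a was 0.689. In WT, with only 32 pDC-like cells under panobinostat, 7 of the 22 risers (31.8%) and 3 of the 8 fallers (37.5%) had the same sign, against 50% of all genes. The class rested on 931543 UMIs of 162 cells in panobinostat 2 and on 6634339 UMIs of 1207 cells in vehicle 1. The other 9 listed T cell markers summed to 231, 225, 279 and 282 CPM, higher in both panobinostat samples, with Lef1 and Bcl11b at 0.

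In cDC1-like cells 148 genes were called, from cells with a median of 13024 to 14486 UMIs per sample against 4128 to 6178 UMIs in the other 3 classes. With every cell thinned to 2000 UMIs 13 genes were called in cDC1-like cells, beside 15 (pDC-like), 16 (cDC2-like) and 13 (mature). Serpinb1a rose most, from 13.2 and 13.6 to 66.3 and 72.1 CPM (log2 fold 2.37, SE 0.124, adjusted p = 3.04e-07). Ccnd2 rose from 11.4 and 8.92 to 42.8 and 36.3 CPM (1.94, SE 0.16, adjusted p = 4.34e-05). In both, the lower panobinostat sample was over 3 times the higher vehicle sample, and each passed under every alternative run. The WT samples were ordered alike but closer, with Serpinb1a at 10.5 and 27.5 CPM and Ccnd2 at 10.7 and 13.9 CPM. Within each of the 3 clusters of the class, Serpinb1a was higher in both panobinostat samples: 12.5, 14.6, 45.6 and 68.1 CPM in the first, 2.61, 2.64, 37.5 and 39.7 CPM in the second, and 24.1, 15.9, 122 and 105 CPM in the third.

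Several chemokines also rose in cDC1-like cells. Of 14 listed chemokines and cytokines tested, 5 rose (Ccl3, Ccl4, Ccl5, Cxcl9 and Il1b), beside 103 of all 9887 genes (1.04%). A positive change was seen in 12, with a median log2 fold of 0.65 against −0.0028 over all genes. Ccl4 stood at 37.1, 37.8, 108 and 84 CPM (1.36, SE 0.123, adjusted p = 5.65e-05), with both panobinostat samples over 2 times the higher vehicle sample. Cxcl9, which draws CXCR3-bearing T cells, stood at 793, 564, 1008 and 1151 CPM (0.67, SE 0.11, adjusted p = 0.00785). Il1b stood at 57.8, 40.6, 117 and 90.8 CPM (1.06, SE 0.148, adjusted p = 0.00252). For Cxcl9 and Il1b vehicle 2 was the lowest sample, and without it both had an adjusted p of 0.17. The third cluster of the class, led by Cxcl9, Il12b and Cxcl10, held 16.9, 7.84, 23.2 and 12.8% of its cells, lowest in vehicle 2. Within that cluster the groups overlapped for Cxcl9 (2519, 3625, 2225 and 2798 CPM) and Il1b (129, 130, 227 and 102 CPM), while Ccl4 was higher in both panobinostat samples (50.9, 50.8, 170 and 81.2 CPM). In the first and second clusters Cxcl9 and Il1b were higher in both panobinostat samples, for Cxcl9 at 429, 320, 528 and 828 CPM in the first. Ccl4 overlapped in the second. These cluster values carry no test.

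Receptors, checkpoint and ISGs gave smaller groups of calls in cDC1-like cells. Cd274, which encodes the checkpoint ligand PD-L1, stood at 12.2, 7.04, 27.1 and 19.7 CPM (1.23, SE 0.226, adjusted p = 0.0149), with 0.0751 without vehicle 1 and 0.394 without vehicle 2. Ccr2, a chemokine receptor of monocytes, stood at 13.7, 6.1, 27.2 and 37.3 CPM (1.62, SE 0.247, adjusted p = 0.00474; 0.142 without vehicle 2). Of 35 ISGs 5 rose, among them Ly6a, Gbp2, Zbp1 and Ifitm3, beside 103 of all 9887 genes (1.04%). The list as a whole was even, with 19 positive and 16 negative changes and a median of 0.0032. Ly6a stood at 54.4, 57, 109 and 125 CPM (1.07, SE 0.0987, adjusted p = 5.68e-05). Its WT values were 28.6 CPM with vehicle and 42.1 CPM with panobinostat.

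Protein folding and cell cycle genes also leaned upward in cDC1-like cells. Of 20 chaperones and enzymes of the endoplasmic reticulum 5 rose, beside 103 of all 9887 genes (1.04%), and 18 had a positive change (median 0.27). Calr, the calcium-binding chaperone calreticulin, stood at 703, 704, 870 and 967 CPM (0.38, SE 0.0545, adjusted p = 0.00268), and Hspa5, the HSP70 of that compartment, at 754, 732, 888 and 1027 CPM (0.36, SE 0.0611, adjusted p = 0.00857). Without vehicle 1 and without vehicle 2 their adjusted p-values were 0.164 and 0.234 for Calr and 0.235 and 0.435 for Hspa5. All 31 S phase genes tested had a positive change (median 0.43), but only Mcm3, a subunit of the replicative helicase, passed (55.7, 58.4, 72.7 and 88.6 CPM; 0.50, SE 0.11, adjusted p = 0.04). Without panobinostat 2 the S phase median was 0.18, with 28 of 31 positive. Of 32 G2/M genes 28 had a positive change (median 0.23) and none passed.

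Genes that fell in cDC1-like cells included Tgfbi, an extracellular matrix protein, at 115, 120, 65.8 and 53.7 CPM (−0.97, SE 0.104, adjusted p = 0.000234). Trf, the iron carrier transferrin, stood at 46.8, 28.6, 18.5 and 11 CPM (−1.37, SE 0.233, adjusted p = 0.00922), and Cd37, a tetraspanin, at 53.1, 54.5, 38.8 and 22.9 CPM (−0.79, SE 0.171, adjusted p = 0.0378). Both panobinostat samples were below both vehicle samples in these 3, which was a condition for naming them. Tgfbi passed under every alternative, while Trf had an adjusted p of 0.341 without vehicle 1 and Cd37 one of 0.544 without vehicle 2.

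The cDC1-like count of 148 was 30 without vehicle 1, 16 without vehicle 2 and 354 without panobinostat 1, and DESeq2 called 47. Of 41 named genes 7 passed whichever sample was left out: Serpinb1a, Ccnd2, Fam26f, Ccl4, Ms4a6c, Ly6a and Tgfbi; thinned to 2000 UMIs per cell, Fam26f, Ms4a6c and Ly6a did not pass. Of the 41, 26 did not pass without vehicle 1 and 31 without vehicle 2. Summed erythroid markers were lower in the panobinostat samples of this class (1034, 1710, 770 and 619 CPM) and summed mature DC markers higher (707, 439, 1126 and 888 CPM), and their part in these results was not tested. In WT, 80 of the 103 risers (77.7%) and 33 of the 45 fallers (73.3%) had the same sign, where 59.1% of all genes did.

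**Figure D4:**
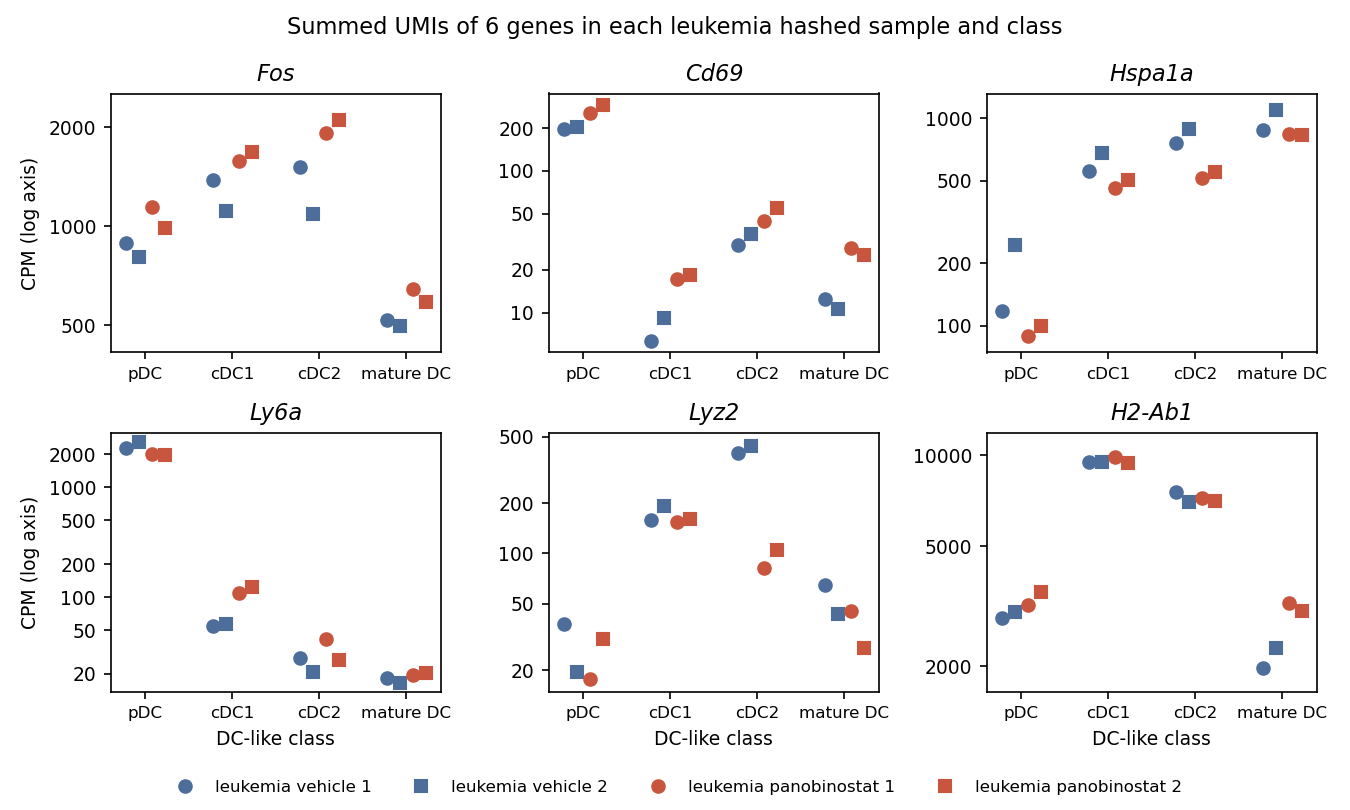
CPM on a log axis (y) of 6 genes, 1 to a panel, in each of the 4 leukemia hashed samples, by DC-like class (x axis); colour gives the treatment and shape the sample number. Lyz2 in cDC2 steps from 400 and 439 CPM with vehicle to 82.2 and 105 CPM with panobinostat, Cd69 in cDC1 from 6.26 and 9.15 CPM to 17.2 and 18.4 CPM, and H2-Ab1 in mature DC from 1976 and 2302 CPM to 3231 and 3049 CPM, while H2-Ab1 in cDC1 lies between 9455 and 9880 CPM in all 4.

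In cDC2-like cells 6 of 18 immediate early and stress genes rose (Atf3, Dusp1, Fos, Nr4a1, Egr1 and Egr3), beside 24 of all 9481 genes (0.253%). All 18 had a positive change, with a median log2 fold of 0.46 against 0.00037 over all genes. The orphan nuclear receptors that follow acute stimulation rose together: Nr4a2 stood at 42.2, 27.5, 74.6 and 102 CPM (1.31, SE 0.186, adjusted p = 0.00411) and Nr4a3 at 26.3, 13.5, 48.5 and 49.8 CPM (1.27, SE 0.201, adjusted p = 0.0109). Dusp1, a phosphatase of MAP kinases, stood at 435, 335, 566 and 622 CPM (0.62, SE 0.106, adjusted p = 0.0123; 0.132 without panobinostat 2). In each of these vehicle 2 was the lowest sample. In mature DC-like cells 15 of 15 were positive and none called (median 0.24), in cDC1-like cells 13 of 18 and 4 called (median 0.34), and in pDC-like cells 7 of 15 and 1 called (median −0.056). Without vehicle 2 the cDC2-like median was 0.20. Ifitm1, an interferon-induced membrane protein, stood at 248, 185, 459 and 407 CPM (0.99, SE 0.116, adjusted p = 0.0011), passed under every alternative, and was at 220 and 466 CPM in WT.

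Lyz2 fell from 400 and 439 to 82.2 and 105 CPM (−2.17, SE 0.113, adjusted p = 1.66e-08), and passed under every alternative. Its WT values were 229 CPM with vehicle and 90.6 CPM with panobinostat. Mgl2 and Cd209a, lectin receptors of cDC2s and related cells, stood at 28.6, 45.8, 8.77 and 3.54 CPM (−2.53, SE 0.305, adjusted p = 0.0011) and at 122, 151, 88.8 and 74.8 CPM (−0.73, SE 0.124, adjusted p = 0.0123; 0.189 without panobinostat 2). Of 10 endocytic receptors tested 2 fell, beside 15 of all 9481 genes (0.158%). A negative change was seen in 8 (median −0.33 against 0.00037 over all genes). The lysosomal genes Lamp1 (147, 129, 88.6 and 86.7 CPM) and Psap (652, 622, 470 and 394 CPM) fell as well (adjusted p = 0.0116 each), Lamp1 with 0.106 without panobinostat 1 and 0.132 without panobinostat 2. The 9 listed monocyte markers other than Lyz2 summed to 258, 186, 343 and 331 CPM in this class, higher in both panobinostat samples, with Chil3 and Vcan at 0. These 9 include Nr4a1, which itself rose in this class, so the sum is not a measure of monocyte RNA alone.

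The class joined a large cluster and a small one, and Lyz2, Mgl2 and Cd209a stood at higher CPM in the small one. The small cluster had 69, 41, 83 and 59 cells, which is 17.9, 15.4, 11 and 9.34% of the class. In it Lyz2 stood at 1860, 2274, 366 and 617 CPM, Mgl2 at 138, 260, 64.2 and 29.1 CPM and Cd209a at 356, 643, 296 and 242 CPM, with both panobinostat samples below both vehicle samples each time. In the large cluster Lyz2 stood at 20.1, 48.2, 39 and 38.3 CPM and Cd209a at 61.9, 47.5, 56.7 and 51.7 CPM, and the groups overlapped. Fos and Atf3 were higher in both panobinostat samples in each of the 2 clusters. These cluster values are a description with no test.

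Hspa1a, described above, and Hspa1b (367, 497, 278 and 288 CPM; −0.61, SE 0.114, adjusted p = 0.0224) were the 2 of 18 chaperones that fell, and 15 of the 18 had a negative change (median −0.14). All 32 G2/M genes had a negative change (median −0.42) and none passed; without vehicle 2 the median was −0.0019 and 16 were positive. All 13 mitochondrially encoded genes had a positive change (median 0.26) and none passed. The count of 39 was 418 without vehicle 1, 137 without vehicle 2 and 12 without panobinostat 2. Of 21 named genes 7 passed whichever sample was left out: Nr4a2, Nr4a3, Atf3, Ifitm1, Tiparp, Mgl2 and Lyz2; 13 did not pass without panobinostat 2. With all 6 hashed samples in the fit and disease state as a term, Nr4a2, Nr4a3, Atf3, Tiparp and Mgl2 had adjusted p-values of 0.0963, 0.483, 0.0963, 0.214 and 0.166. Thinned to 2000 UMIs per cell, Nr4a3, Tiparp and Mgl2 had 0.166, 0.0801 and 0.0847, and DESeq2 did not call Atf3. In WT, 18 of 24 risers (75%) and 9 of 15 fallers (60%) had the same sign, against 51.5% of all genes.

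In mature DC-like cells the genes that rose were 3 MHC class II chains, H2-Ab1, H2-Eb1 and H2-Aa, with Ccl22, a chemokine that draws CCR4-bearing T cells, and Prph, a filament protein known from neurons. H2-Eb1 stood at 3078, 3214, 4554 and 4392 CPM (log2 fold 0.51, SE 0.0616, adjusted p = 0.00409). H2-Ab1 stood at 1976, 2302, 3231 and 3049 CPM (0.56, SE 0.0785, adjusted p = 0.0151), and H2-Aa at 3401, 3736, 4886 and 4740 CPM (0.43, SE 0.0643, adjusted p = 0.0204). The samples of each treatment lay close together, and groups without overlap were a condition for naming these genes. All 12 MHC class II genes tested had a positive change, with a median of 0.47 against −0.0017 over all genes. Cd74, the invariant chain that guides class II molecules, stood at 8370, 10596, 12307 and 12316 CPM (0.38, adjusted p = 0.159).

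Prph stood at 9.62, 5.88, 52.3 and 89.3 CPM (2.99, SE 0.33, adjusted p = 0.00271) and Ccl22 at 112, 103, 179 and 217 CPM (0.85, SE 0.138, adjusted p = 0.0404). Without vehicle 1 and without vehicle 2 the adjusted p of Ccl22 was 0.0816 and 0.0958, and that of H2-Aa was 0.0588 without vehicle 1. In WT the MHC class II genes did not follow: H2-Eb1 was at 4104 CPM with vehicle and 3979 CPM with panobinostat, H2-Ab1 at 2918 and 2635 CPM, and Prph at 29.9 and 34 CPM. Of the 5 risers 2 had the same sign in WT (40%), against 55.9% of all genes. The 3 class II genes did not pass at the lower and higher cluster resolutions tried, nor, like Prph, with all 6 hashed samples in the fit. The largest cluster of the class differed between samples, so the values were also read within its 4 main clusters. H2-Ab1 was higher in both panobinostat samples in all 4, for example 954, 1421, 2552 and 2880 CPM in the cluster with its lowest level in vehicle 1. In the cluster where it was highest it stood at 5135, 5590, 5632 and 5651 CPM, close in all samples, and there H2-Eb1 and H2-Aa overlapped. Prph came almost wholly from 1 cluster, with 22.2, 13.9, 148 and 165 CPM. The count of 5 was 14 without vehicle 1, 13 without vehicle 2, 87 without panobinostat 1 and 26 without panobinostat 2.

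Whether the change in a class differed from that in the others was tested directly, in 1 edgeR fit over the 4 classes with the hashed sample as a block. The value tested was the class's log2 change minus the mean of the other 3. Of 7374 genes 8 differed for pDC-like (0.108%), 24 for cDC1-like (0.325%), 8 for cDC2-like (0.108%) and 10 for mature DC-like cells (0.136%). The clearest were Ccnd2 (difference 1.61, SE 0.205, adjusted p = 0.000176) and Serpinb1a (1.94, SE 0.261, adjusted p = 0.000239) in cDC1-like cells, Lyz2 in cDC2-like cells (−1.72, SE 0.206, adjusted p = 5.5e-05), and H2-Eb1 in mature DC-like cells (0.56, SE 0.0701, adjusted p = 0.00014). Each passed under every alternative that tested it (8 for Serpinb1a and 10 for each of the others). In GRCm38 they lie at chr6:127125162-127152193 (Ccnd2, minus strand), chr13:32842092-32851185 (Serpinb1a, minus), chr10:117277331-117282321 (Lyz2, minus) and in the MHC region of chromosome 17 (H2-Eb1). A difference by this test does not mean that the other classes were unchanged. Ccnd2 also rose in cDC2-like cells (log2 fold 0.82), and Lyz2 had −0.67 in pDC-like and −0.61 in mature DC-like cells.

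Ly6a changed in opposite directions: its pDC-like change was below the mean of the others by 0.85 (−0.85, SE 0.147, adjusted p = 0.0106), and its cDC1-like change above it by 0.95 (SE 0.162, adjusted p = 0.00424). Neither difference passed without vehicle 1 (adjusted p = 0.0734 and 0.345) or without vehicle 2 (0.396 and 0.0533). Ifi27l2a, another ISG, fell in cDC2-like cells (578, 608, 439 and 436 CPM; −0.44, SE 0.0799, adjusted p = 0.0223) and rose in cDC1-like cells (70.4, 71.1, 101 and 88.6 CPM; 0.43, adjusted p = 0.0438). Mgl2 is the third gene called in opposite directions, up in pDC-like cells (22.7, 25.6, 38.3 and 47.3 CPM; 0.80, SE 0.17, adjusted p = 0.0319) and down in cDC2-like cells; without vehicle 1 its pDC-like adjusted p was 0.64.

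In mature DC-like cells H2-Ab1 (0.52, SE 0.0752, adjusted p = 0.000925), H2-Aa (0.43, SE 0.0675), H2-DMa, which loads peptides onto class II molecules (0.65, SE 0.103, adjusted p = 0.00166), and Vim (1.03, SE 0.157, adjusted p = 0.00129) had a log2 change above the mean of the other classes. For Vim this set 0.60 in mature DC-like cells against −0.77 in pDC-like, −0.17 in cDC1-like and −0.34 in cDC2-like cells. H2-Ab1, H2-Aa, H2-DMa and Vim had adjusted p-values of 0.081, 0.081, 0.081 and 0.128 without vehicle 1, and the last 3 of 0.127, 0.0664 and 0.0686 without panobinostat 2. In pDC-like cells Egr1 (−1.16, SE 0.207, adjusted p = 0.0121), Klf6 and Ccr9, a gut-homing receptor, had a log2 change below that mean, and Ifi27 one above it (1.12, SE 0.232, adjusted p = 0.0479). The pDC-like changes of Egr1, Klf6 and Ccr9 were negative (−0.70, −0.23 and −0.23) and those in the other 3 classes positive. Ccr9 is a pDC marker, at 762 CPM in pDC-like cells and 23.1, 7.78 and 5.54 CPM in cDC1-like, cDC2-like and mature DC-like cells. The part of RNA from pDCs in these low values was not tested. Egr1 had an adjusted p of 0.295 without vehicle 2 and 0.368 without panobinostat 1. In cDC1-like cells Ms4a6c, Fcer1g, the common Fc receptor gamma chain, Lgals1 and Ms4a4c had a log2 change above the mean of the other classes, and Cd37, Rac2, Rtl8a and Ly6d one below it. The cDC1-like changes of these last 4 were negative, at −0.79, −0.29, −0.59 and −0.67. Ly6d, also a pDC marker, was at 18 CPM in cDC1-like and 4750 CPM in pDC-like cells. Of the 28 contrast results named by rule, 5 passed whichever sample was left out: the 4 above and Fcer1g.

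Of the non-DC classes, erythroid-like and B cell-like cells were tested. In erythroid-like cells 10 of 9204 genes rose (0.109%) and none fell (184 lower and 411 higher at an unadjusted p under 0.05). These genes are named after their values were seen. Ifitm1 stood at 24, 9.72, 77.3 and 70.3 CPM (2.20, adjusted p = 0.0166) and Atf3 at 47.5, 32.3, 139 and 98.8 CPM (1.63, adjusted p = 0.0166). Both had also risen in cDC2-like cells. H2-Ab1, a gene of antigen-presenting cells, stood at 1012, 873, 1452 and 1335 CPM there (0.62, adjusted p = 0.0267). The part of RNA from other cells in these values was not tested. In B cell-like cells edgeR called none of 2932 genes, with 88 higher and 67 lower at an unadjusted p under 0.05.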

How the data were processed

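The authors deposited 1 matrix of UMI counts, whole numbers for 31053 genes, 2 antibody tags and 6 hashtags in each of 38717 barcodes of a single capture, per the file headers. Per the submitters' processing notes, the tools were Cell Ranger 3.1.0 and Seurat 3.1.0 and the build GRCm38 (mm10), and what each tool did is not given in the sources used here. The counts were used as deposited. The members, gene lists and tests were chosen with earlier results of these data known.

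Barcodes were assigned by hashtag ratio, and those with a doublet score (simulated doublets among nearest neighbours) of 0.25 or more were left out. Cells of all 6 samples were clustered without the listed genes (29 Leiden clusters at resolution 1; igraph 0.11.9, leidenalg 0.10.2), and 12 clusters were named as DC-like from marker genes. A name needed at least 3 markers, and at least 1 in 3 of the class's markers, at a log2 fold of 1 or more and 20 CPM or more. The mean marker log2 fold had to reach 0.25, and the leading genes could not hold more markers of another class. Clusters that failed these or further checks were left unnamed.

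UMIs were summed per hashed sample and class. edgeR 4.0.16 (quasi-likelihood test, TMM scaling, filterByExpr) compared 2 panobinostat with 2 vehicle samples in each class, and tested each class's change against the other 3 with the hashed sample as a block. limma 3.58.1 (trend) tested the mean over classes of log2 CPM with a prior count of 2. DESeq2 1.42.0 was an alternative. The tests were tried on simulated data first. Samples of a group varied by 5% (pDC-like), 6.74% (cDC1-like), 6.52% (cDC2-like) and 8.31% (mature), as edgeR's common biological coefficient of variation. Same-numbered samples were not paired: their deviations correlated at 0.0511 to 0.0834 over genes. Shares have exact binomial 95% intervals and exact permutation tests in scipy 1.17.1.

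Named genes were, in each class, the called genes without overlap between groups and with a mean of 20 CPM or more, 8 of largest rise and 8 of largest fall, plus up to 3 called members of a list. In the class contrasts they were the 5 in each direction with the smallest adjusted p. Immunoglobulin, haemoglobin and unnamed gene models were not named, and 1 gene that the rule gives is not reported here. CPM is not corrected for length; these are 3′ tags. Positions are from GENCODE.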

Additional observations from a re-analysis of the deposited data

Results flagged for a closer look

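A set of 3 results is given because the change in 1 DC-like class differed from the mean change in the other 3 by the test of that difference. The log2 change of Ly6a, the surface protein Sca-1, in pDC-like cells lay −0.85 from the others, and in cDC1-like cells it lay 0.949 from them. That of Ifi27l2a, an interferon-induced gene, lay 0.627 from the others in cDC1-like cells (SE 0.126, adjusted p = 0.021). Both genes were called in opposite directions in 2 classes, Ly6a lower in pDC-like and higher in cDC1-like cells, Ifi27l2a lower in cDC2-like and higher in cDC1-like cells. Ly6a was at 2291 and 2617 CPM in the vehicle samples of pDC-like cells and at 54.4 and 57 CPM in those of cDC1-like cells, so the opposite changes stand on very different levels.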

How the results depend on the processing

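Shares of pDC-like, cDC2-like and mature DC-like cells kept their direction under every alternative run, and 2 samples against 2 limit every test. Of the alternative values for counts and shares 121 stayed near the reported one, 77 moved and 2 changed sign; named genes kept their call in 992 of 1356 values in a class, 175 of 275 in a contrast and 303 of 417 on the mean. Differences in the share of DC-like cells (percentage points, lowest and highest with 1 sample left out) were −31.9 and −9.84 for pDC-like, −9.29 and 3.23 for cDC1-like, 9.69 and 22.5 for cDC2-like, and 6.18 and 9.43 for mature DC-like cells. As shares of kept cells they were −24.9 and −7.14, −6.88 and 2.52, 7.95 and 17.6, and 4.31 and 8.39. The Siglec-H share difference ranged from −5.83 to −1.23, and was −5.9 at a hashtag ratio of 10 and −13.3 at the 95th percentile. The mature share difference was 11.6 at Leiden resolution 2.

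Counts of called genes with 1 sample left out ran from 18 to 137 in pDC-like, 16 to 354 in cDC1-like, 12 to 418 in cDC2-like and 13 to 87 in mature DC-like cells, from 77 to 316 on the mean, and from 2 to 9, 6 to 34, 1 to 11 and 1 to 17 in the contrasts of these classes, with 0 in every class each time. In the order pDC, cDC1, cDC2 and mature, counts were 59, 464, 181 and 99 with no filter on low counts (contrasts 43, 67, 51 and 48; 1 gene in every class). The replicate block, with sample number as a term, gave 86, 573, 145 and 85 and 2 genes in every class (Cd69 and Hspa1b); as the numbers mark no known pairing, these are not read as better estimates. A hashtag ratio of 10 gave 16 in pDC, 69 in cDC2, 18 in mature, 41 on the mean and 5 in the pDC contrast. Without the doublet filter they were 0 in pDC, 288 in cDC1 and 8 in mature, and 2, 6, 3 and 6 in the contrasts. Cells thinned to 2000 UMIs gave 15, 13, 16 and 13, 47 on the mean, and 3, 3 and 17 in the pDC, cDC1 and mature contrasts. All 6 samples with disease state as a term gave 15 in pDC, 7 in cDC2 and 11 in mature. Leiden resolution 0.5 gave 1 in mature, and resolution 2 gave 15 in pDC, 266 in cDC1 and 1 in mature. RLE size factors gave 5 in the pDC contrast. DESeq2 gave 0 in pDC, 47 in cDC1 and 20 in cDC2. Leaving out cells of high cycle score, chosen after seeing the data, gave 104 in cDC2, 13 in mature, 37 on the mean, and 23, 26 and 18 in the pDC, cDC2 and mature contrasts. The contrast of Egr1 in pDC-like cells became 0.0146 without the doublet filter and that of Ly6d in cDC1-like cells 0.0139 when thinned. Leaving out cycling clusters was not run, since no named DC-like cluster was led by cycle genes. The causes of these shifts were not tested.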

Other observations

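Genes of sterol synthesis, a list made after the values were seen and so given with no test of the list, leaned upward in 3 of the 4 classes. On the mean over classes all 17 tested had a positive change with a median log2 change of 0.33, and 4 passed limma's test. Hmgcs1, which feeds the mevalonate pathway, had mean log2 CPM of 5.29, 5.20, 5.69 and 5.83 (0.51, SE 0.086, limma adjusted p = 0.00441), and Fdps, which makes farnesyl diphosphate, 6.31, 6.26, 6.61 and 6.92 (0.48, SE 0.0849, limma adjusted p = 0.00634). Insig1, the sterol sensor's anchor (0.62, SE 0.129, limma adjusted p = 0.0184), and Msmo1, a sterol oxidase (0.43, SE 0.0939, limma adjusted p = 0.0266), also rose. The medians were 0.50 in cDC1-like cells (18 of 19 positive, 2 called), 0.43 in mature DC-like cells (18 of 18 positive, none called), 0.30 in cDC2-like cells (15 of 18, none called) and 0.020 in pDC-like cells (10 of 19, none called). Whether pDC-like cells differ from the other classes in this list was not tested.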
